A study of Mus musculus with 4 samples.

Results

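The proteasome genes of mouse kidney were compared between animals injected with cisplatin and animals injected with physiological saline. The members were the protein-coding genes of the deposited count table whose symbol starts with Psma to Psmg and a number. Psmb8, Psmb9 and Psmb10, the inducible catalytic subunits of the immunoproteasome, were left out and are given further on for comparison. The rule found 47 of the 29190 genes in the table: 8 alpha and 8 beta subunits of the core, 6 ATPases and 3 other subunits of the base, 8 subunits of the lid, 6 activator and inhibitor genes, 7 assembly factors, and Psmc3ip. Psmc3ip carries the prefix but encodes a cofactor of meiotic recombination, and it is kept apart from the subunits here.

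The study used 8-week-old male C57 mice, with 2 kidney libraries per group. Cisplatin, a platinum compound that forms DNA crosslinks and is toxic to the renal tubule, was injected at 30 mg/kg. The protocol gives intervals of 24 h and 48 h between injection and death, and does not say which applies to these libraries. The protocol describes 18 mice in 3 groups. The 2 libraries of a group are described as biological replicates, but whether a library pools several mice is not given. The p-values and standard errors below thus rest on the spread between these libraries. The test pools this spread in part over genes, so they do not reflect each gene's own spread alone. The tissue is whole kidney, a mixture of tubule, vessel, stromal and immune cells, in which fewer cells of a type and less RNA per cell cannot be told apart.

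The proteasome degrades proteins that carry chains of ubiquitin. Its core is a barrel of 4 stacked rings, with the proteolytic sites on the beta subunits inside and a gate formed by the alpha subunits at either end. A regulatory particle caps the barrel. The base of this cap holds a ring of ATPases that unfold the substrate, and its lid removes the ubiquitin chain. Other caps, the PA28 and PA200 activators, open the gate without ATP. In many cells the subunit genes are induced together by the transcription factor NFE2L1 when proteolysis is limiting.

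Library totals were 20662475 and 23150274 counts with cisplatin and 21483564 and 27122403 with saline, and values are always given in the order replicate 1, replicate 2. Abundances below are CPM, counts divided by the library size in units of 1e+06 after scaling of that size with edgeR's trimmed mean method (TMM), and differences are log2 fold changes of cisplatin over saline with a standard error (SE). A gene passed at an adjusted p under 0.05 (edgeR's quasi-likelihood test, Benjamini-Hochberg over all 17419 tested genes). All 12 proximal tubule markers fell, from summed levels of 20415 and 20816 CPM in saline to 3009 and 2995 CPM in cisplatin. The list for macrophages and monocytes had 9 of 11 genes higher and 1 lower (summed 107 and 117 CPM in saline, 272 and 290 CPM in cisplatin). All 5 tested neutrophil markers of 8 listed rose (summed 4.11 and 2.91 CPM in saline, 33.2 and 30.5 CPM in cisplatin). Ly6g and Mpo had 0 counts in both saline libraries. Of 6 tested lymphocyte markers of 9 listed, 2 rose and none fell (summed 5.47 and 4.02 CPM in saline, 5.95 and 5.71 CPM in cisplatin). These changes lie between the same libraries as the proteasome results below, and their part in those results was not tested.

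Most proteasome genes were modestly higher in the cisplatin kidneys. Among 46 members that could be tested there were 29 rises and 9 falls, and 8 missed the threshold. The background was high, since 73.6% of all tested genes were called, 37.2% higher and 36.4% lower, against 63.0% higher and 19.6% lower among the members. The rises were small: 10 members (21.7%) were called higher at 1.5-fold or more, against 27.9% of all tested genes. In 33 tested members (71.7%) both cisplatin libraries lay above both saline libraries, against 44.7% of all tested genes. The median log2 fold change was 0.27 for the members and 0.04 for all tested genes. The members' summed counts made up 0.365 and 0.381% of the saline libraries and 0.580 and 0.539% of the cisplatin libraries, as shares of unscaled totals. On the TMM scale their sum was 4248 and 4234 CPM in saline and 5052 and 4808 CPM in cisplatin, a smaller difference.

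How many rose and fell changed with the scaling of the libraries. Under upper-quartile scaling there were 31 rises and 5 falls, with a median of 0.39. When only the library totals were used there were 38 rises and 3 falls, with a median of 0.64. The median of all tested genes moved with it, to 0.16 and 0.41. The members stayed 0.23 to 0.24 above it, because a scaling moves both medians nearly alike. In other fits, some of them over more genes, this distance did change. It was 0.12 with DESeq2 and without the low-count filter, and 0.42 with limma-trend on log2(FPKM + 1). Without cisplatin replicate 1 it was 0.18, and without cisplatin replicate 2 it was 0.31. With limma-trend on log2(FPKM + 0.1), 30 rose and 3 fell. Without cisplatin replicate 2 the number that fell was 5. A scaling shifts all genes by nearly the same amount, so the distances between members given below hardly change with it.

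**Figure D1:**
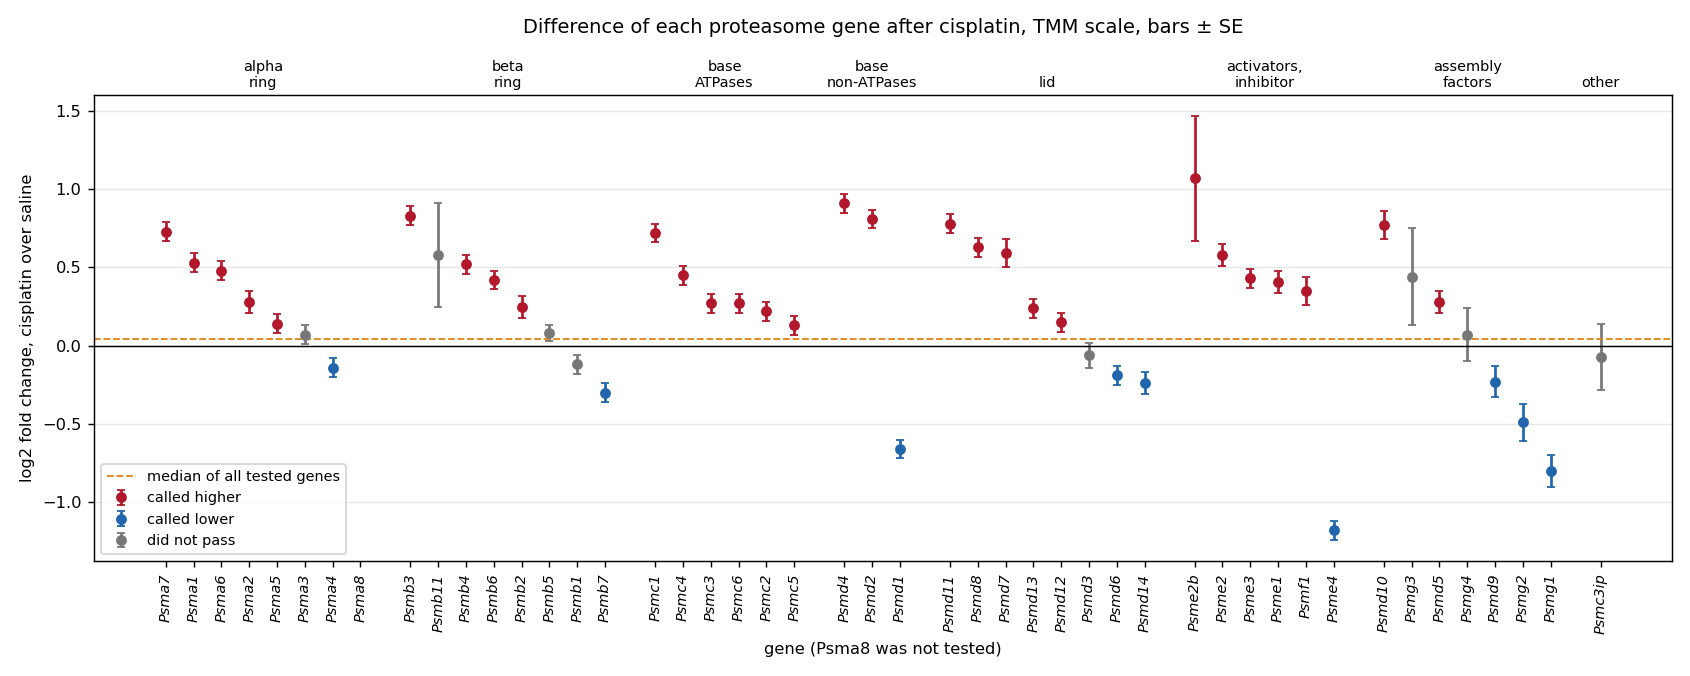
Log2 fold change of cisplatin over saline on the TMM scale for each tested proteasome gene (x axis, grouped by place in the complex), with bars of ± 1 SE; red marks genes called higher, blue genes called lower, grey genes that did not pass, and the dashed line the median of all tested genes. Most genes lie between 0 and 0.91, while Psme4 at -1.18, Psmg1 at -0.80 and Psmd1 at -0.66 are the lowest.

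**Figure D2:**
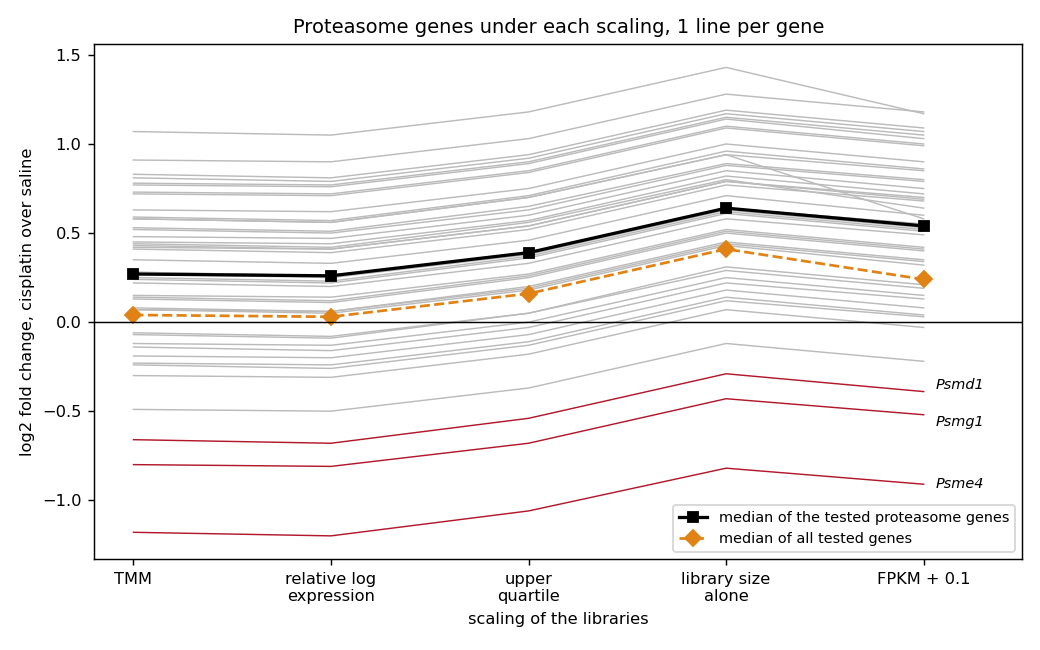
Log2 fold change of each tested proteasome gene (1 line per gene) under 5 scalings of the libraries on the x axis, with the median of the members (squares) and of all tested genes (diamonds). On the FPKM scale all tested genes are 24751 genes, against 17419 under the other scalings. The lines shift nearly in parallel, apart from the genes with few counts on the FPKM scale, and Psme4, Psmd1 and Psmg1 stay below 0 under each scaling shown.

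Levels of different subunits can be compared per length, in the authors' FPKM. The set holds 31 structural subunits of core, base and lid, with Psma8 and Psmb11 left out. Their median was 41.4 and 46.4 FPKM in the saline libraries and 73.3 and 65.1 FPKM in the cisplatin libraries. On log2(FPKM + 0.1) their median log2 fold change was 0.53, against 0.24 for all 24751 genes in that fit. On the TMM scale these values were 0.27 and 0.04, the latter over 17419 genes. The 2 medians of all genes are thus not over the same genes. For the 31 subunits the median group difference was larger in FPKM than on the TMM scale. Class medians were taken over all members of a class, Psma8 and Psmb11 included. Those of the core rings stood above those of base and lid, although single subunits overlapped between the classes. The class median of the alpha ring was 52.6 and 61.0 FPKM in saline and 99.5 and 94.7 FPKM in cisplatin, and that of the lid was 21.5 and 21.8 FPKM in saline and 29.5 and 30.4 FPKM in cisplatin. Subunits of the same complex differed widely in level. The most and least abundant of the 31 were 6.70 and 7.37 times apart in saline and 8.03 and 7.04 times apart in cisplatin. In saline the highest was Psma4 (93.8 and 107 FPKM), and in cisplatin it was Psmb3 (171 and 153 FPKM).

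**Figure D3:**
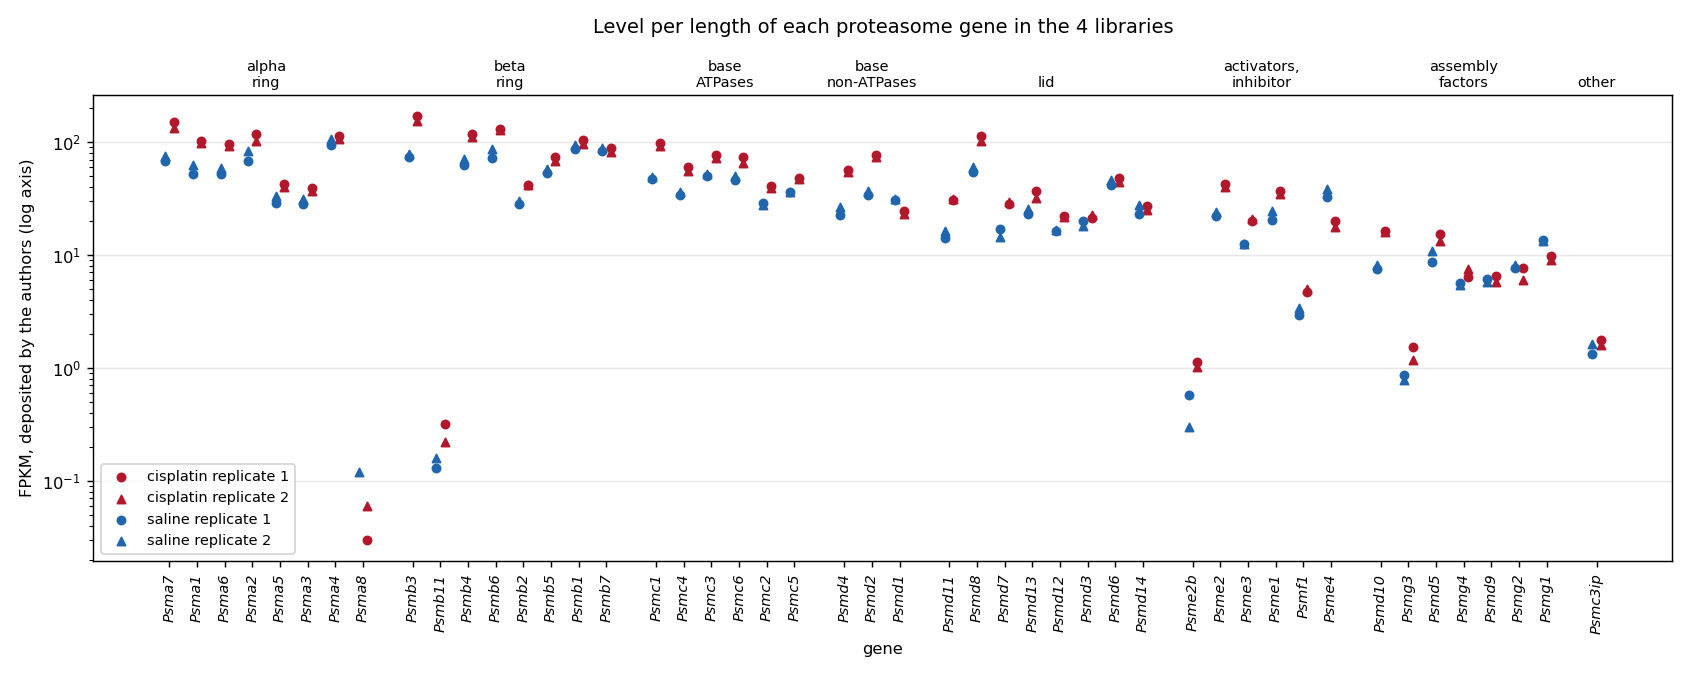
Deposited FPKM of each proteasome gene (x axis) in the 4 libraries on a log axis, cisplatin in red and saline in blue; the saline replicate 1 value of Psma8 is 0 and is not drawn. Core subunits lie mostly between 28.03 and 171 FPKM, assembly factors lower, and Psma8 and Psmb11 at or below 0.32 FPKM.

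In the alpha ring, which gates the core, 5 of 7 tested genes rose, 1 fell and 1 missed the threshold (median 0.28). Psma7 rose the most. It stood at 113 and 114 CPM in saline and at 198 and 179 CPM in cisplatin, or 0.73 higher on the log2 scale (SE 0.06; edgeR adjusted p = 2.08e-09). The groups lay well apart, at 1.66-fold. Psma1, Psma6 and Psma2 rose by 0.53, 0.48 and 0.28, and Psma5 by 0.14, a call that was lost without cisplatin replicate 1 (0.11), cisplatin replicate 2 (0.17) or saline replicate 1 (0.09). The call for Psma5 was also lost with relative log expression scaling, without the low-count filter and with the replicate number as a block. It was lost with edgeR's exact test and with DESeq2 as well. Psma3 did not pass, at 0.07 (SE 0.06; edgeR adjusted p = 0.275), although its cisplatin libraries (159 and 151 CPM) lay above its saline libraries (147 and 148 CPM). Psma4 fell slightly, from 200 and 207 CPM to 189 and 180 CPM (-0.14, SE 0.06; edgeR adjusted p = 0.035), but with library size alone its value was 0.22. The call for Psma4 was also lost without cisplatin replicate 2 (-0.11), saline replicate 1 (-0.18) or saline replicate 2 (-0.12). Upper-quartile scaling (-0.03), a filter of 1 CPM, protein-coding genes alone and edgeR's exact test did not call Psma4 either. Psma7 and Psma4 were thus 0.87 apart on the log2 scale.

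The beta ring holds the 3 catalytic subunits Psmb5, Psmb6 and Psmb7, named for chymotrypsin-like, caspase-like and trypsin-like cleavage. They did not move as a group. Psmb6 rose from 105 and 115 CPM to 148 CPM in both cisplatin libraries (0.42, SE 0.06; edgeR adjusted p = 2.96e-06). Psmb5 stood at 84.8 and 82.9 CPM in saline and 91.4 and 85.9 CPM in cisplatin and did not pass (0.08, SE 0.05; edgeR adjusted p = 0.193). Psmb7 fell from 176 and 171 CPM to 146 and 137 CPM (-0.30, SE 0.06; edgeR adjusted p = 0.000157), with no overlap between groups, while with library size alone its value was 0.07. Exons of Nek6 on the opposite strand share 405 bases with those of Psmb7, and Nek6 counts were higher in cisplatin (523 and 527 against 163 and 238). The counting's use of strand is not given.

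Among the non-catalytic beta subunits Psmb3 rose the most, from 103 and 99.0 CPM to 187 and 171 CPM (0.83, SE 0.06; edgeR adjusted p = 2.84e-10). It lay 1.12 above Psmb7 on the log2 scale. Psmb4 rose by 0.52 and Psmb2 by 0.25. Psmb1 stood at 166 and 161 CPM in saline and 155 and 146 CPM in cisplatin and did not pass (-0.12, SE 0.06; edgeR adjusted p = 0.0807). With library size alone its value was 0.25, past the test, and without cisplatin replicate 1 it was -0.16, also past the test. Psmb11, the thymus-specific catalytic subunit, was barely present, with 19 and 28 counts in saline and 46 and 35 in cisplatin, and did not pass (0.58, SE 0.33; edgeR adjusted p = 0.123). Over the whole ring 4 of 8 rose, 1 fell and 3 did not pass.

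All 6 ATPases of the base rose, by 0.13 to 0.72, with a median log2 fold change of 0.27. Psmc1 led, from 130 and 124 CPM to 215 and 205 CPM (0.72, SE 0.06; edgeR adjusted p = 1.23e-09). Psmc4 followed at 0.45, Psmc3 and Psmc6 at 0.27 each, and Psmc2 at 0.22. Psmc5 was the weakest, at 87.3 and 79.0 CPM in saline and 90.9 and 90.7 CPM in cisplatin (0.13, SE 0.06; edgeR adjusted p = 0.0493). Its call was lost without cisplatin replicate 1 (0.13), cisplatin replicate 2 (0.13) or saline replicate 2 (0.05), and that of Psmc2 without saline replicate 2 (0.11). DESeq2 did not call Psmc2 either (0.19, DESeq2 adjusted p = 0.0539). Subunits that form a single ring thus differed by 0.59 on the log2 scale between Psmc1 and Psmc5.

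The 3 non-ATPase subunits of the base in this set moved in both directions. They held the widest contrast among its structural subunits. Psmd4 (ENSMUSG00000005625.13, GRCm38 chromosome 3, 95032694 to 95042614, minus strand), a receptor for ubiquitin chains, rose from 75.4 and 81.2 CPM to 149 and 146 CPM. Its log2 fold change of 0.91 (SE 0.06; edgeR adjusted p = 2.67e-11) was the highest of the structural subunits in the set. Subunits without the prefix are outside the set, among them Adrm1 and Shfm1, which are listed with the partners below. Adrm1 rose by 1.59 (SE 0.09; edgeR adjusted p = 3.43e-12). Shfm1 overlapped between groups and did not pass (0.07, SE 0.06; edgeR adjusted p = 0.323). Psmd2, a scaffold that docks shuttle proteins carrying substrates, rose from 185 and 181 CPM to 323 and 316 CPM (0.81, SE 0.06; edgeR adjusted p = 1.87e-10). Psmd1 (ENSMUSG00000026229.15, chromosome 1, 86064387 to 86139151, plus strand) is the other large scaffold of the base. It fell from 175 and 163 CPM to 109 and 104 CPM (-0.66, SE 0.06; edgeR adjusted p = 5.65e-09). The 2 scaffolds moved apart by 1.47 on the log2 scale, and Psmd4 and Psmd1 by 1.57. Both distances were the same with library size alone. Psmd1 stayed lower there, at -0.29. In FPKM, Psmd1 and Psmd2 were near each other in saline (30.7 and 31.5 against 34.2 and 36.8) and far apart in cisplatin (24.5 and 22.9 against 76.4 and 73.3).

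The promoter windows of the base members at the 2 ends of the range, Psmd4 and Psmd1, are shown because they went in opposite directions. Those of Psmb6, a catalytic subunit that rose, and Psme4, the member with the largest fall on the TMM scale, are added. Each runs from 250 bases before to 50 bases after the RefSeq start on GRCm38.p6, read 5′ to 3′ on the gene's strand. Capitals mark the core of the antioxidant response element, the site bound by NFE2L1 and NFE2L2 (TGACNNNGC), and the CCAAT box, bound by NF-Y, on either strand. The windows lie at chr3:95042565-95042864 (minus strand), chr1:86064369-86064668, chr11:70525107-70525406 and chr11:30771525-30771824 (plus strand), in the order printed.
Psmd4: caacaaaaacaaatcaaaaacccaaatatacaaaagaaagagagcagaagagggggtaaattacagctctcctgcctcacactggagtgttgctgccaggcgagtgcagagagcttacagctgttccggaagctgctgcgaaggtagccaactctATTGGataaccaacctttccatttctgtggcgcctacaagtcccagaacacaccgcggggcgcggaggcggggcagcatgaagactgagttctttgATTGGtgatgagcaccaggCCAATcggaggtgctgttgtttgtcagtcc
Psmd1: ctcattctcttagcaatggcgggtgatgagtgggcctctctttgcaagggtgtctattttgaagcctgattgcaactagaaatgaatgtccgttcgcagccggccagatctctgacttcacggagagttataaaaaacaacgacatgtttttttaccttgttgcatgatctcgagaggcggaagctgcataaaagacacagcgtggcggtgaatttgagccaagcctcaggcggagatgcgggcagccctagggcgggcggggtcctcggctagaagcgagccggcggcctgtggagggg
Psmb6: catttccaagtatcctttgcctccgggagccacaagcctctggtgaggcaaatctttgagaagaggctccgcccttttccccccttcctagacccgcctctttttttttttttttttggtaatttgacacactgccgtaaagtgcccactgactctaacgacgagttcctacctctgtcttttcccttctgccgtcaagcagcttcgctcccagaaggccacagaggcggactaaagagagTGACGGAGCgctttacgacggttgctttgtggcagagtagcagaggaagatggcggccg
Psme4: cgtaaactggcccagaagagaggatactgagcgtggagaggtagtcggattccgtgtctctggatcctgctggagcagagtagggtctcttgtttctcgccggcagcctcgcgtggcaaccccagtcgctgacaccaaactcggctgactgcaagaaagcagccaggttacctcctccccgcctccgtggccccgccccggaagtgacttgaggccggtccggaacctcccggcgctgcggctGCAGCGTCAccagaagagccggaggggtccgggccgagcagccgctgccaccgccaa
Psmd4 had 3 CCAAT matches and no match to the response element core, Psmd1 had neither, and Psmb6 and Psme4 each had 1 match to the core, at base -9 and base -7 from the start.

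Windows were found for 39 of the 47 members. No window was used for Psma8, Psmb1, Psmb2, Psmb7, Psmc3, Psmd3, Psmd7 and Psmg2. The response element core matched in 6 members (15.4%), namely Psmb5, Psmb6, Psmc6, Psmd12, Psmd9 and Psme4, against 14.0% of 27025 genes with a window. Among these 6 were 3 rises, 2 falls and 1 gene that missed the threshold. Their median was 0.11 on the log2 scale, against 0.43 for the 33 tested members without a match. The CCAAT box matched in 14 members (35.9%), against 41.1% of genes. The palindrome bound by nuclear respiratory factor 1 matched in 2 members (5.1%), Psma2 and Psmg1, against 1.1% of genes. Both strands were searched, each motif on its own, so that matches to different motifs may overlap.

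In the lid, which deubiquitinates substrates and ties the cap together, 5 of 8 genes rose, 2 fell and 1 did not pass (median 0.20). Psmd11 encodes a subunit that clamps the cap to the core. It rose from 75.8 and 79.4 CPM to 131 and 136 CPM (0.78, SE 0.06; edgeR adjusted p = 1.86e-10). Psmd8 and Psmd7 rose by 0.63 and 0.59, and the saline libraries of Psmd7 differed, at 49.9 and 38.6 CPM. Psmd13 and Psmd12 rose by 0.24 and 0.15. The call for Psmd13 was lost without cisplatin replicate 1 (0.14), and that for Psmd12 without cisplatin replicate 1 (0.15), cisplatin replicate 2 (0.16) or saline replicate 2 (0.10). Exons of Sirt3 on the opposite strand share 342 bases with Psmd13, and Sirt3 counts were lower in cisplatin (553 and 582 against 1296 and 1708).

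Psmd14 encodes the metalloprotease that cleaves the ubiquitin chain off the substrate. It fell from 64.4 and 71.3 CPM to 59.4 and 55.6 CPM (-0.24, SE 0.07; edgeR adjusted p = 0.0026), whereas with library size alone it stood at 0.12. Without cisplatin replicate 2 it did not pass (-0.19). Psmd6 fell from 104 and 106 CPM to 95.0 and 89.6 CPM (-0.19, SE 0.06; edgeR adjusted p = 0.00495), with 0.18 under library size alone and no call without cisplatin replicate 2 (-0.15). Psmd3 did not pass (-0.06, SE 0.08; edgeR adjusted p = 0.476), and its groups overlapped, with saline at 78.8 and 64.2 CPM and cisplatin at 65.4 and 71.0 CPM. Its 2 saline libraries decided its value, which was -0.21 and called without saline replicate 2 and 0.08 without saline replicate 1. With library size alone it was 0.31 and past the test. Psmd11 and Psmd14, partners in 1 assembly, were 1.02 apart on the log2 scale.

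Among the activators, the PA28 genes rose and PA200 fell. Psme1 and Psme2, which form the interferon-inducible PA28 ring, rose by 0.41 and 0.58, and Psme3, the nuclear PA28 gamma, rose by 0.43. Psme2 stood at 39.1 and 39.2 CPM in saline and 59.6 and 57.3 CPM in cisplatin (SE 0.07; edgeR adjusted p = 1.91e-07). Psmf1, which encodes the inhibitor PI31, rose from 21.6 and 22.5 CPM to 27.1 and 29.1 CPM (0.35). Psme4 (ENSMUSG00000040850.15, chromosome 11, 30771726 to 30880361, plus strand) encodes PA200, a nuclear cap linked to degradation of acetylated histones. It fell from 389 and 410 CPM to 186 and 166 CPM. At -1.18 (SE 0.06; edgeR adjusted p = 2.29e-12), or 2.27-fold lower, this was the largest change of all the members in absolute log2 terms on the TMM scale. With library size alone it stayed lower, at -0.82, and was exceeded in size by several of the rises, such as Psmd4 at 1.28. Psme3 and Psme4 were 1.61 apart. In FPKM, Psme4 stood above Psme2 in saline (32.8 and 38.1 against 21.9 and 24.2) and below it in cisplatin (20 and 17.6 against 42.7 and 40.3).

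Psme2b, an intronless copy of Psme2, had 16 and 10 counts in saline and 32 in each cisplatin library. It passed at 1.07 (SE 0.40; edgeR adjusted p = 0.0235), but its value was 0.57 without saline replicate 2, and the call was lost there, without cisplatin replicate 1 (1.00) and without cisplatin replicate 2 (1.12). Its transcript matches that of Psme2 over 794 bases at 99.4% identity. Psme2 had 722 to 1486 counts per library, so reads of the pair may have been split between them, and Psme2b is reported as uncertain.

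On the TMM scale assembly factors were the class with the most falls, with 2 of 7 rising, 3 falling and 2 not passing (median 0.07). Of all tested genes 37.2% were called higher and 36.4% lower, so these few calls do not set the class apart. The ranking was lost with library size alone, where 4 of the class rose and 1 fell (median 0.43). Under upper-quartile scaling 2 rose and 2 fell (median 0.18). Psmd10 (gankyrin) and Psmd5, chaperones of the base, rose, whereas Psmd9, another base chaperone, fell. Psmd10 stood at 20.1 and 19.7 CPM in saline and 34.1 and 34 CPM in cisplatin (0.77, SE 0.09; edgeR adjusted p = 1.47e-07), and Psmd5 rose by 0.28, a call missed with limma-trend on log2(FPKM + 0.1) (0.55, adjusted p = 0.0518). Psmd9 fell from 28.8 and 25.0 CPM to 24.0 and 21.9 CPM (-0.23, SE 0.10; edgeR adjusted p = 0.0418). With library size alone Psmd9 was at 0.14, and its call was lost without cisplatin replicate 2 (-0.16) or saline replicate 1 (-0.14). Psmg1 and Psmg2 form a dimer that starts the alpha ring, and both fell. Psmg1 went from 26.0 and 23.2 CPM to 14.7 and 13.6 CPM (-0.80, SE 0.10; edgeR adjusted p = 8e-07), and it stayed at -0.43 with library size alone. Psmg2 went from 14.8 and 14.4 CPM to 11.6 and 9.25 CPM (-0.49, SE 0.12; edgeR adjusted p = 0.00166), and with library size alone it stood at -0.12 and did not pass.

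The partner dimer of Psmg3 and Psmg4 did not pass. Psmg3 had 26 and 28 counts in saline and 46 and 39 in cisplatin (0.44, SE 0.31; edgeR adjusted p = 0.213), and its exons share 280 bases with those of the gene model Gm26938 on the same strand. Psmg4 overlapped between groups, at 5.68 and 4.96 CPM in saline and 5.02 and 6.05 CPM in cisplatin (0.07, SE 0.17; edgeR adjusted p = 0.736). Psmd10 and Psmg1, both assembly factors, were 1.57 apart on the log2 scale.

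The remaining members gave little. Psma8, the testis form of Psma7, had 0 and 8 counts in saline and 2 and 4 in cisplatin and was not tested. Psmc3ip overlapped between groups, with 3.14 and 3.44 CPM in saline and 3.29 and 3.01 CPM in cisplatin (-0.07, SE 0.21; edgeR adjusted p = 0.777). Exons of Mlx on the opposite strand share 385 bases with Psmc3ip and gathered many more counts (1113 and 1406 in saline, 650 and 723 in cisplatin). Across the set, 11 members have a transcript matching that of a gene elsewhere in the genome at 95% identity or more over at least 200 bases. Apart from the Psme2 pair, no such copy with a row in the count table had more than 164 counts in a library, the number at a non-coding transcript, A730017L22Rik, that matches Psmd11 over 219 bases.

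The members with the longest genes were mostly among those that fell on the TMM scale. Of the 6 tested members spanning more than 50 kb on the genome, 5 fell (Psme4, Psmd14, Psmd9, Psmd1 and Psmb7) and Psma2 rose. This limit was set after the values were seen. The values of Psmd14, Psmd9 and Psmb7 changed sign with library size alone, so the count of 5 depends on the scaling. Among tested protein-coding genes longer than 50 kb, 54.4% of 4081 were called lower. Over the 46 tested members Spearman's rho between gene length and log2 fold change was -0.43, and it was -0.35 without the shortest and the longest gene and -0.22 over the 40 members of at most 50 kb. Over the 14411 tested protein-coding genes with a length, rho was -0.24. These points share the same 4 libraries and are given as a description. The 23 shorter members (up to 11.8 kb) had a median of 0.52 with 16 rising and 3 falling, and the 23 longer had a median of 0.15 with 13 rising and 6 falling. Split at the same length, the tested protein-coding genes had medians of 0.26 (1879 higher and 1185 lower of 4080) and -0.11 (3540 higher and 4549 lower of 10331), so the difference between short and long genes was also present outside the set. Many members went against this order. The 3 falls among the shorter members were Psmg1, Psmd6 and Psma4, at 11, 8.81 and 7.24 kb. The 13 rises among the longer members included Psmd11 (0.78 at 44.6 kb) and Psma6 (0.48 at 34.2 kb). With exon length in place of gene length, rho was -0.12 over the members.

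**Figure D4:**
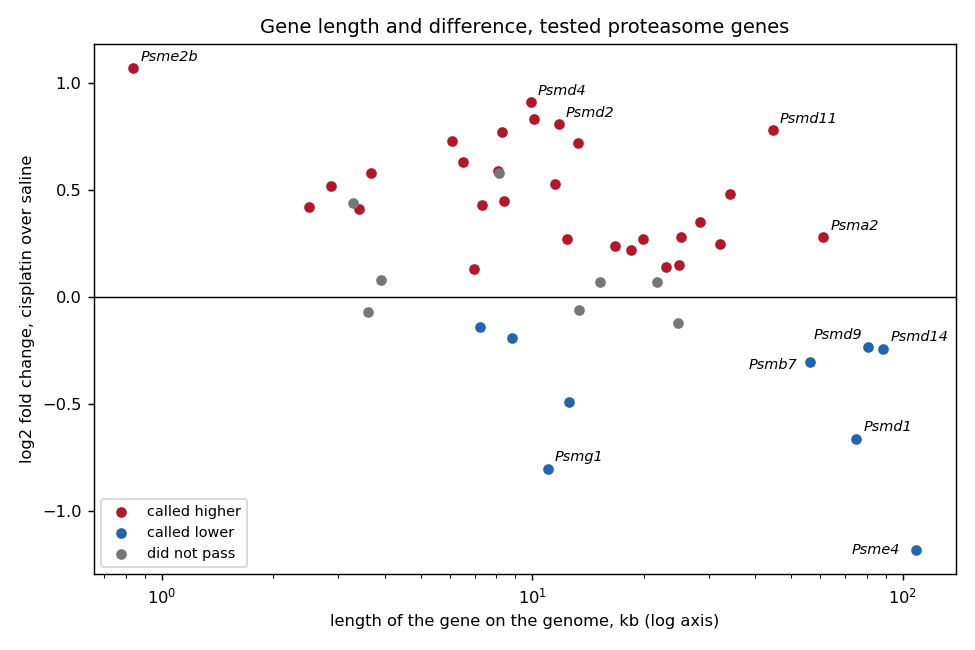
Length of each tested proteasome gene on the genome in kb (log x axis) against its log2 fold change of cisplatin over saline on the TMM scale (y axis). Of the 6 genes beyond 50 kb, Psma2 alone lies above 0, while Psmd11 at 44.6 kb lies at 0.78.

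Genes that work with the proteasome were described from 7 lists chosen with earlier results of these data known, in which 68 of the 77 genes were called. The counts below stand against the background of 73.6% of all tested genes called, 37.2% higher and 36.4% lower, to which several lists are near. The 3 catalytic subunits of the immunoproteasome, which replace Psmb5, Psmb6 and Psmb7 in cells exposed to interferon, all rose. Psmb8 went from 8.82 and 9.83 CPM in saline to 23.7 and 23.4 CPM in cisplatin (1.33, SE 0.11; edgeR adjusted p = 1e-09). Psmb9 and Psmb10 rose by 0.89 each, with both groups apart. In FPKM, Psmb8 stood at 5.57 and 6.35% of the level of Psmb5 in saline and at 13.9 and 14.6% in cisplatin. Psmb10 stood at 4.32 and 5.16% of Psmb7 in saline and 10.5 and 11.2% in cisplatin, and Psmb9 at 1.52 and 1.75% of Psmb6 in saline and 2.14 and 2.43% in cisplatin. The standard catalytic subunits thus remained the more abundant in every library. Macrophage and neutrophil markers were higher in the same libraries, as given above, and their part in this difference was not tested.

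Of 13 interferon and antigen processing genes 12 rose and 1 fell (median 1.18), with Ifit1 at 2.60, Tapbp, which loads peptides onto class I molecules, at 1.65, and Isg15, a ubiquitin-like modifier, at 3.45. Proteasome partners, mainly shuttles, deubiquitinases and adaptors but also Adrm1 and Shfm1, were mixed. Of 20, 11 rose, 6 fell and 3 did not pass (median 0.20). Zfand2a, a proteasome-binding protein induced by arsenite, rose from 12.0 and 11.3 CPM to 104 and 106 CPM (3.18, SE 0.07; edgeR adjusted p = 3.11e-18). Midn, which carries proteins to the proteasome without ubiquitin, rose by 1.74, and Fbxo7, which binds the inhibitor PI31, fell by 1.10. Paaf1 was not analysed here.

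Among the 13 genes of transcriptional control 9 rose, 2 fell and 2 did not pass (median 0.34). The small Maf factors, partners of NFE2L1 and NFE2L2 on DNA, led, with Maff at 4.91 (from 1.41 and 1.39 CPM to 41.4 and 42.8 CPM) and Mafk at 2.0. Ngly1, the glycanase that processes NFE2L1, fell from 96.0 and 107 CPM to 43.2 and 47.2 CPM (-1.17, SE 0.07; edgeR adjusted p = 3.15e-12). Nfe2l1 itself, chosen for mention after its value was seen, rose by 0.34. The 12 NFE2L2 targets had a median of 1.28, with 9 rising, among them Srxn1 at 2.60, Hmox1 at 3.34 and Pgd at 2.06, and 2 falling. Of 10 cytosolic heat shock genes 7 rose and 2 fell (median 1.11), led by Hspb1 at 3.73, Hspa1b at 2.85 and Hspa1a at 2.75. The most abundant of them, Hspa8, fell from 2073 and 2250 CPM to 1070 and 1023 CPM (-1.05). The summed level of the list was 2880 and 3100 CPM in saline and 2727 and 2599 CPM in cisplatin. Hspa1a and Hspa1b are near-identical copies, so reads may have been split between them. Of the 6 ubiquitin supply genes 3 rose, among them Rps27a at 0.55 and Uba1 at 0.36, and 1 fell. The fall was not called without cisplatin replicate 1, without saline replicate 1 or with DESeq2, and with library size alone 5 of the 6 rose. With library size alone the genes called lower were 4 among the partners and 1 each in transcriptional control, NFE2L2 targets and heat shock, and none in ubiquitin supply or the interferon list. The proteasome genes' own median of 0.27 was below that of the NFE2L2, heat shock and interferon lists, a difference that was not tested.

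**Figure D5:**
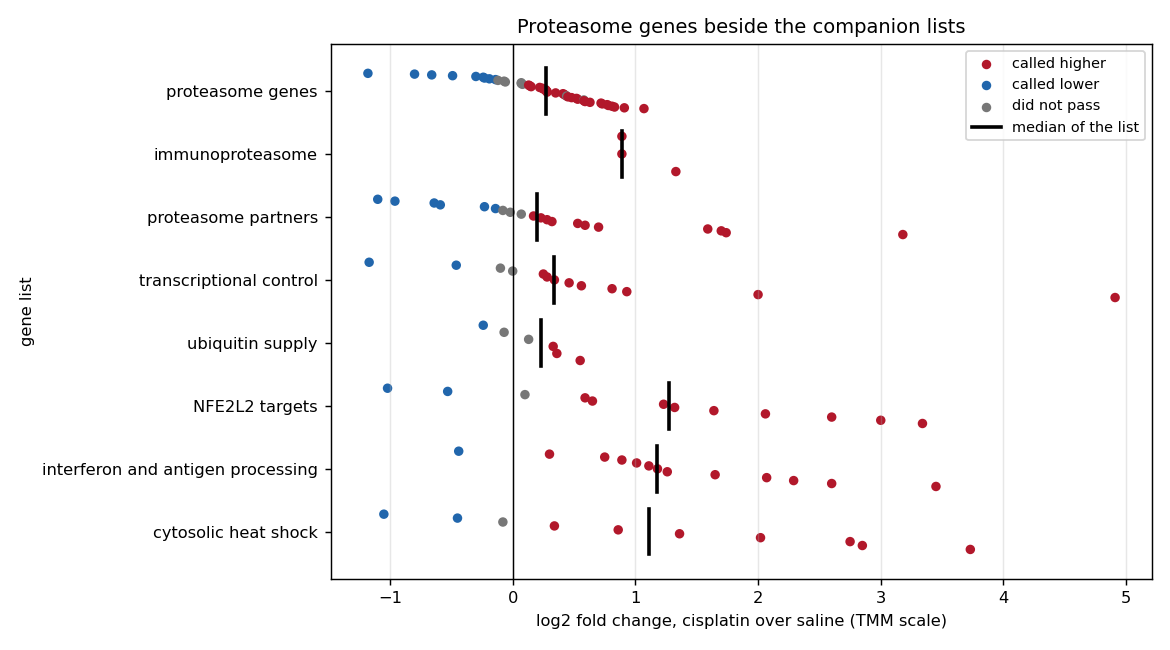
Log2 fold change of cisplatin over saline for each tested gene (points) of the proteasome set and of the 7 companion lists, with the median of each as a line. Points are red where called higher, blue where called lower and grey otherwise; the proteasome genes lie between -1.18 and 1.07 with a median of 0.27, while the NFE2L2, interferon and heat shock lists have medians of 1.28, 1.18 and 1.11.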

How the data were processed

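Kidney RNA of 2 cisplatin and 2 saline libraries was depleted of ribosomal RNA and sequenced as directional 150 nt pairs, per the labels' protocols. The submitters' processing notes name bcl2fastq, TopHat2, edgeR and GRCm38. Versions, the counting program, its strand setting and its handling of multiply mapped reads: not given in the sources used here. The deposited count table holds unnormalized read counts per gene. The deposited FPKM table holds the authors' fragments scaled for gene length and depth. Members, lists and tests were chosen with earlier results of these data known.

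Counts were tested with edgeR 4.0.16 (quasi-likelihood, TMM, filterByExpr by group, Benjamini-Hochberg over 17419 genes, threshold 0.05) in R 4.3.3. Checked on simulated data, it recovered 39 of 50 genes raised 1.5-fold (49 tested) and 33 of 50 genes lowered by as much (46 tested), with 6 false calls. In the simulation few genes were changed, as many up as down, with the same dispersion for all genes. It therefore cannot give the error rate or check the scaling here, where 73.6% of tested genes were called. Full statistics were given for the called members with the largest rise and fall in each class, for members not called and for those whose groups overlapped, and companions were named by the 3 smallest p-values in each list, except 1 gene that is not reported here. Other members and companions named with values serve the description of their class or list and were chosen after their values were seen. Alternatives were other scalings and filters, a replicate block, each library left out, the exact test of edgeR, DESeq2 1.42.0, and limma-trend 3.58.1 on log2(FPKM + 0.1) and log2(FPKM + 1) for genes above 0 in at least 2 libraries. These 2 offsets damp the fold changes of low genes. At these depths 3 counts correspond to 0.116 to 0.162 CPM on the TMM scale, which covers counting error only. Coordinates, overlaps and copies come from GENCODE M21 on GRCm38 (BLAST 2.17.0), and promoters from RefSeq on GRCm38.p6.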

Additional observations from a re-analysis of the deposited data

How the results depend on the processing

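Of the 38 called members, 25 kept call and direction in each of the 15 alternatives in which they were tested: 22 of the 29 that rose and 3 of the 9 that fell (Psme4, Psmd1 and Psmg1). The number that fell was 5 under upper-quartile scaling, 3 when library size was used unscaled, and 3 with limma-trend on log2(FPKM + 0.1) and on log2(FPKM + 1), and ranged from 5 to 10 on leaving out 1 library. The median was 0.39, 0.64, 0.54 and 0.49 under those 4 settings. The median of all genes shifted as well, to 0.16, 0.41, 0.24 and 0.07, where the 2 FPKM fits cover 24751 genes. Under library size alone, FPKM + 0.1 and FPKM + 1 in that order, values changed sign for Psma4 (0.22, 0.13, 0.13), Psmb1 (0.25, 0.15, 0.15), Psmc3ip (0.29, 0.19, 0.12), Psmd14 (0.12, 0.03, 0.03), Psmd3 (0.31, 0.21, 0.20), Psmd6 (0.18, 0.08, 0.08) and Psmd9 (0.14, 0.04, 0.04). Psmb7 did so with library size alone (0.07), and with upper-quartile scaling Psmb1 (0.00), Psmc3ip (0.05) and Psmd3 (0.05) did. Leaving out a library changed the sign of Psmd3 (0.08 without saline replicate 1, range -0.21 to 0.08), Psmc3ip (0.00 without saline replicate 2, range -0.14 to 0.00) and Psmg4 (-0.08 without cisplatin replicate 2, -0.04 without saline replicate 2, range -0.08 to 0.19). The count scalings shift all genes by nearly the same amount, whereas the FPKM fits also damp low genes; why the libraries' scaling factors differ was not tested. With the replicate number as a block 27 members rose and 9 fell. The labels do not say that the numbers pair samples, and deviations of same-numbered libraries correlated at -0.021. Members with few counts (Psmb11, Psme2b, Psmg3) are limited by depth, with standard errors of 0.31 to 0.40.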
